A study of Sus scrofa with 32 samples.

Results

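The 36 genes described here drive S phase and mitosis, and they were chosen by name and grouped by role: 12 genes of DNA replication, 7 regulators of the passage from G1 into S phase, and 17 genes of G2 and mitosis. Each gene was matched by symbol to the RefSeq gene table of the pig assembly Sscrofa11.1, and 34 of the 36 lie on placed chromosomes, among 19550 protein-coding genes placed there. MCM5, a subunit of the replicative helicase, and CDC25A, a phosphatase of the G1/S step, are on unplaced sequence and have no values. The value of a gene was the number of base pairs (bp) lying under peaks of a library within its span extended by 5 kb on both sides. A longer value therefore means a wider or an additional peak. The height of a peak is not part of the value, and length was not separated from signal strength or read depth.

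The data are CUT&Tag libraries, in which an antibody guides a transposase to a histone mark, from muscle satellite cells of the pig, the stem cells of skeletal muscle. H3K4me3, a mark of promoters, H3K27ac, a mark of active promoters and enhancers, and H3K27me3, the mark of Polycomb repression, were each profiled in 4 conditions with 2 libraries apiece, giving 24 peak lists. WT cells were untreated. CBP cells were given SGC-CBP30, a small molecule that occupies the bromodomains by which the acetyltransferases CBP and p300 hold chromatin, at a labelled dose of 5 with the unit uM/ml. At 0 h the cells were proliferating, and the CBP cells had been treated for 48 h. At 60 h the cells had been in differentiation, and the CBP cells had been treated for those 60 h. The labels contradict themselves in places: the cell line and growth fields name C3H cells and RPMI medium beside the pig and satellite cell fields, and proliferation is entered as the treatment of the 60 h samples as well. The time follows the titles here, and the cell type its own field. Nothing in the labels says that the 2 libraries of a group came from separate cultures, so p-values measure the spread between these libraries alone, which may be technical.

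Proliferating cells copy their DNA after origins of replication have been licensed, when CDC6 and CDT1 load the MCM helicase, and after E2F factors and cyclin E with CDK2 have opened S phase. Cyclin A and cyclin B with CDK1 then bring about mitosis, many of whose genes are switched on by FOXM1 and the MYBL2 complex and are held down in resting cells by the DREAM complex with E2F4. Myoblasts leave the cell cycle for good as they differentiate, and the genes of both phases are known to be turned down at that exit.

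The libraries carried H3K4me3 at 8 of 10 satellite cell and myoblast markers in both WT libraries at 0 h. VCAM1 and CALCR, both used to mark satellite cells, were listed at 0 there, as was MYOD1 in both CBP libraries at 0 h. The 10 markers summed to 30.5 to 31.0 kb in WT and 16.5 to 16.8 kb in CBP at 0 h. At 60 h they summed to 39.4 to 41.2 kb in WT and 33.2 to 34.1 kb in CBP. Of 8 markers of differentiating muscle, 1 had the mark in both WT libraries at 0 h and 8 at 60 h. Their summed length was 0.945 to 1.506 kb at 0 h and 35.0 to 35.5 kb at 60 h in WT, and 18.0 to 19.4 kb in CBP cells at 60 h. Of 4 endothelial markers 0 had H3K4me3 in any group, and of 4 immune markers 1 did (CD68, with PTPRC, CSF1R and CD3E at 0). Of 3 adipocyte markers 1 had it in both libraries of every group but CBP at 60 h, where 2 did, with ADIPOQ at 0 throughout. Of 6 fibroblast markers 4 had it in both libraries of every group, with LUM at 0 throughout, DCN at 0 in both libraries of 3 groups, and a summed length of 12.6 to 12.7 kb in WT at 0 h, 7.67 to 7.72 kb in CBP at 0 h, 14.8 to 15.8 kb in WT at 60 h and 13.8 to 14.6 kb in CBP at 60 h. In such bulk samples, fewer cells with a mark and less of it per cell cannot be told apart. Read depth is unknown, and the total length under peaks moved with the groups. H3K4me3 peaks covered 21.8 and 22.1 Mb in WT at 0 h, 17.3 and 17.4 Mb in CBP at 0 h, 27.4 and 26.5 Mb in WT at 60 h, and 27.6 and 27.5 Mb in CBP at 60 h. H3K27ac peaks covered 13.0 and 11.6, 6.30 and 4.77, 20.2 and 18.0, and 11.7 and 9.26 Mb in the same order, and H3K27me3 peaks 1.11 and 3.12, 34.7 and 25.1, 7.26 and 4.67, and 10.4 and 9.42 Mb. Each change of a member is therefore given beside the change of all genes, and the part of the covered length in the results was not tested.

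The S and M phase genes carried H3K4me3 in every library. All 34 genes had at least 1 H3K4me3 base in all 8 libraries, against 60.1% of all genes (11745). For 32 of the 34 the peak lay within 1 kb of a gene end in all 8 libraries. The exceptions were CDC6, which loads the helicase and whose peak lay farther from its ends in every library, and CCNE2, a cyclin E, with a peak at a gene end in 7 of 8. Every H3K4me3 peak of MCM4, CDC25C, AURKA, FOXM1 and KIF20A also lay within 1 kb of another protein-coding gene. So did 16 of 17 peaks at CDK2, 23 of 26 at MCM7 and 7 of 8 at RRM1. At the other members a smaller part or none did. Which gene such a peak belongs to cannot be told apart. The strongest H3K4me3 peak of each member had a median rank at percentile 77.7 and 79.2 of its list in the WT libraries at 0 h and 58.4 and 57.5 at 60 h. In CBP cells that median was 75.3 and 73.7 at 0 h and 63.4 and 62.1 at 60 h.

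Summed over the 34 genes, H3K4me3 covered 97.7 and 98.5 kb in WT at 0 h, 83.6 and 82.9 kb in CBP at 0 h, 97.8 and 94.7 kb in WT at 60 h, and 100 and 97.8 kb in CBP at 60 h. The CBP libraries at 0 h were the lowest, and the other groups overlapped. These sums are not scaled to the covered length of each list, which was also lowest in CBP at 0 h (17.3 and 17.4 Mb). In WT it went from 21.8 and 22.1 Mb at 0 h to 27.4 and 26.5 Mb at 60 h, while the members' sums did not rise. As a share of the gene window, the level was highest in WT cells at 0 h at CDT1, which licenses origins, with 38.6%. It was 34.8% at CDC20, an activator of the anaphase-promoting complex, and 28.9% at AURKB, a mitotic kinase. It was lowest at BUB1, a kinase of the spindle checkpoint, with 2.32% and at the helicase subunit MCM6 with 2.43%. Such a share depends on window length, which was 14.3 kb at CDT1 and CDC20, 25.3 kb at AURKB, 48.1 kb at BUB1 and 65.0 kb at MCM6. In bp the lowest mean in WT at 0 h was 913.5 at CDC6, against 1116 at BUB1 and 1577.5 at MCM6. Within 1 kb of another gene lay 12 of 27 H3K4me3 peaks at CDT1, 14 of 23 at CDC20 and 16 of 36 at AURKB.

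**Figure D1:**
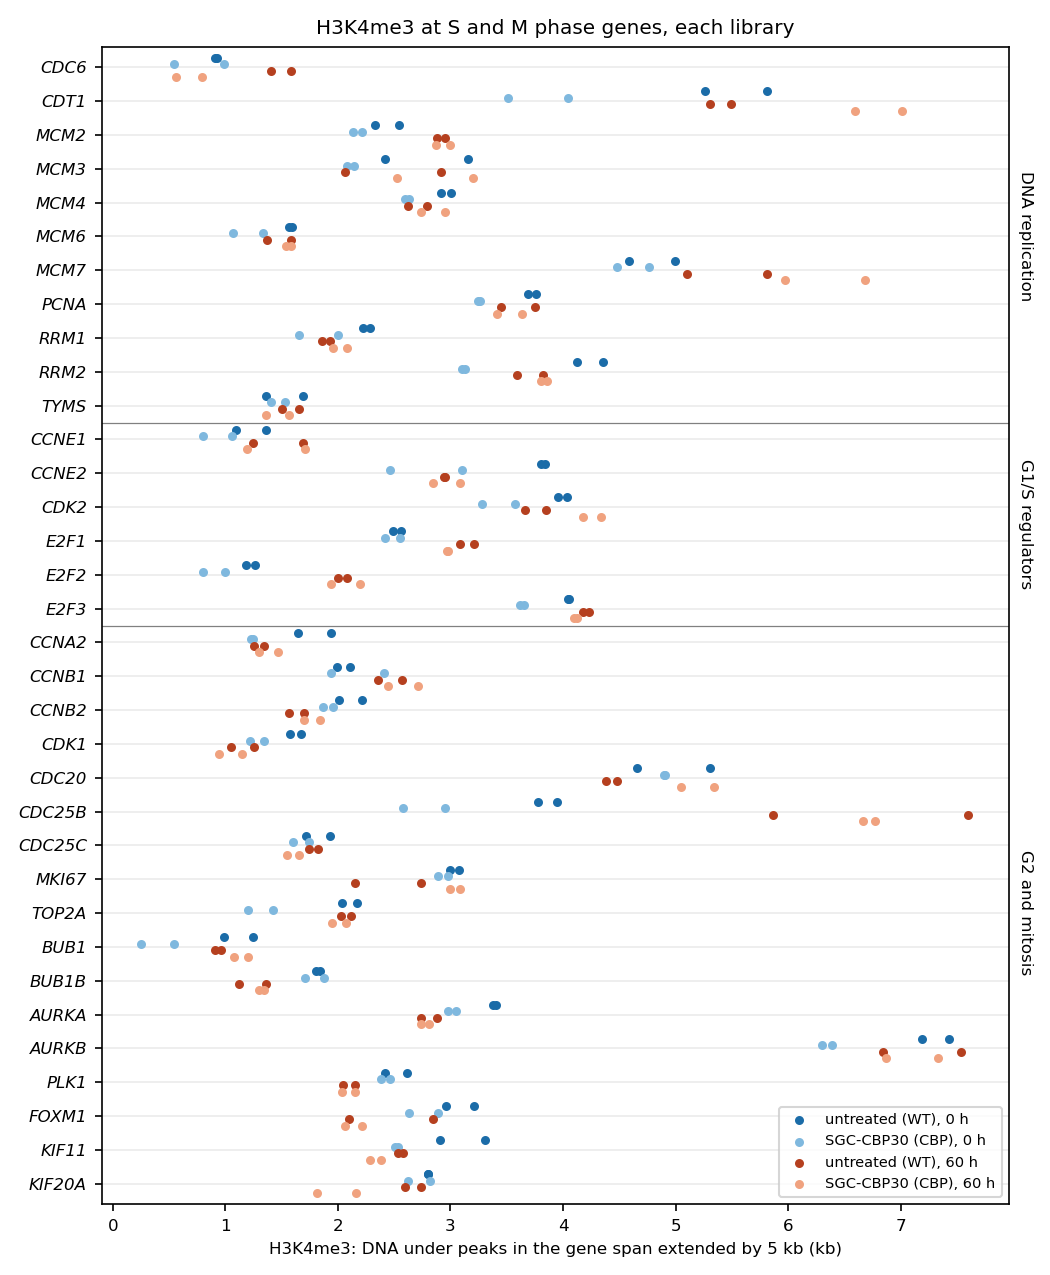
H3K4me3 length under peaks (kb) at each of the 34 genes, in 3 blocks by role, with 1 point for each of the 8 libraries coloured by group. Every gene has a value above 0 in every library, from 247 bp at BUB1 in a CBP library at 0 h to 7594 bp at CDC25B in a WT library at 60 h.

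The first comparison asked what differentiation did to these genes in untreated cells. H3K4me3 became longer at 4 members and shorter at 10 (limma, Benjamini-Hochberg adjusted p below 0.05), while over all 13394 genes tested 42.2% were longer and 5.85% shorter at 60 h. The 4 that rose were CDC25B, E2F2, E2F1 and MCM2. The 10 that fell were CCNA2, CCNB2, CDK1, MKI67, BUB1B, AURKA, PLK1 and KIF11 of the mitosis list, RRM2 of the replication list and CCNE2 of the G1/S list. The median log2 change (on the log2 scale of bp plus 500, as for all changes here) was -0.08 over the 34 members against 0.18 over all genes tested. By role, 1 of 11 replication genes rose and 1 fell (median -0.05), 2 of 6 G1/S genes rose and 1 fell (median 0.12), and 1 of 17 mitosis genes rose and 8 fell (median -0.22). The median of the replication genes lay 0.17 above that of the mitosis genes. Forcing all 8 libraries to one distribution (quantile scaling) moved the median of all genes to -0.07, with 18.1% of them longer and 27% shorter. The members then split into 2 longer and 24 shorter, with 0 and 6 of the replication genes, 1 and 3 of the G1/S genes and 1 and 15 of the mitosis genes. Fewer members fell when 1 library was left out: 5 without either WT library of 0 h, 6 with WT 60 h replicate 1 omitted and 5 with WT 60 h replicate 2 omitted. For the mitosis genes those counts were 5 (WT 0 h replicate 1 omitted), 4 (WT 0 h replicate 2 omitted) and 4 with WT 60 h replicate 2 omitted. The single replication gene that fell was lost without WT 0 h replicate 1 or WT 60 h replicate 1, and 2 fell without either CBP library of 0 h.

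Among the replication genes, MCM2, a subunit of the helicase, had 2543 and 2333 bp of H3K4me3 in WT at 0 h and 2877 and 2952 bp at 60 h. Both libraries at 60 h lay above both at 0 h, and the log2 change was 0.22 ± 0.05 (SE, adjusted p = 0.0145, limma). The call was lost under quantile scaling (0.02, adjusted p = 0.825), and when WT 0 h replicate 2 or either WT library of 60 h was left out. RRM2, the small subunit of ribonucleotide reductase, which supplies the building blocks of DNA, had 4356 and 4126 bp at 0 h and 3591 and 3818 bp at 60 h. It fell by 0.17 ± 0.05 on the log2 scale (adjusted p = 0.0223). PCNA, the sliding clamp of the DNA polymerases, had 3761 and 3691 bp at 0 h and 3750 and 3445 bp at 60 h, and the values of the 2 times overlapped. CDC6 had 905 and 922 bp at 0 h against 1586 and 1407 bp at 60 h, apart from each other without passing the threshold (0.50 ± 0.18, adjusted p = 0.0601).

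Of the G1/S genes, the transcription factor E2F2 had 1259 and 1185 bp at 0 h and 2080 and 2005 bp at 60 h, a log2 change of 0.56 ± 0.08 (adjusted p = 0.00241, limma). The groups were well apart, and the call held in every alternative run. E2F1 had 2491 and 2562 bp at 0 h and 3087 and 3209 bp at 60 h (0.27 ± 0.04, adjusted p = 0.00335). That rise was gone when bases within 1 kb of another protein-coding gene were left out, with a change of -0.11 and an adjusted p of 0.309, and it was not called under quantile scaling (0.06, adjusted p = 0.320). CCNE2 had 3804 and 3837 bp at 0 h and 2941 and 2954 bp at 60 h, a log2 change of -0.33 ± 0.09 (adjusted p = 0.0278) that was lost when any 1 of these 4 libraries was left out. CCNE1, the other cyclin E, had 1094 and 1357 bp against 1249 and 1688 bp, and its groups overlapped.

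The mitosis genes held most of the shorter peaks. CDK1, the kinase that triggers mitosis (chr14:64233945-64255290), had 1570 and 1675 bp at 0 h and 1049 and 1251 bp at 60 h, and its 2 groups did not overlap. It fell by 0.37 ± 0.09 (adjusted p = 0.0191, limma), a call lost without either WT library of 0 h or WT 60 h replicate 1. Its partner CCNA2, cyclin A2, had 1648 and 1934 bp against 1344 and 1250 bp and fell by 0.35 ± 0.08 (adjusted p = 0.012), lost without WT 0 h replicate 2 or WT 60 h replicate 2. BUB1B, the spindle checkpoint kinase BubR1, had 1807 and 1842 bp against 1120 and 1363 bp. It fell by 0.42 ± 0.08 (adjusted p = 0.00565), and the call held in every alternative run. AURKA, the kinase of spindle poles, had 3407 and 3381 bp against 2739 and 2877 bp and fell by 0.24 ± 0.04 (adjusted p = 0.00459).

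The polo kinase PLK1 had 2615 and 2418 bp at 0 h and 2041 and 2153 bp at 60 h, a log2 change of -0.22 ± 0.05 (adjusted p = 0.017, limma) that was lost without WT 0 h replicate 1 or WT 60 h replicate 1. MKI67, the proliferation marker Ki-67, had 3074 and 2999 bp against 2735 and 2156 bp, with a log2 change of -0.27 ± 0.09 (adjusted p = 0.047) that was lost in 11 of 16 alternatives, among them the omission of every library but WT 60 h replicate 1. FOXM1, an activator of mitosis genes, had 2959 and 3211 bp against 2845 and 2100 bp (-0.28 ± 0.12, adjusted p = 0.0971), and TOP2A, the topoisomerase that untangles sister chromosomes, had 2032 and 2167 bp against 2114 and 2030 bp. Neither passed the test. CCNB1, cyclin B1, had 2105 and 1996 bp against 2356 and 2573 bp, higher in both libraries at 60 h without a call. The exception among mitosis genes was CDC25B, a phosphatase that activates CDK1 (chr17:31910824-31929418), with 3944 and 3779 bp at 0 h and 7594 and 5865 bp at 60 h. Both 60 h libraries exceeded both 0 h libraries, and the log2 change of 0.72 ± 0.11 (adjusted p = 0.00328) held in every alternative run. Its share of the gene window went from 13.5% to 23.5%.

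**Figure D2:**
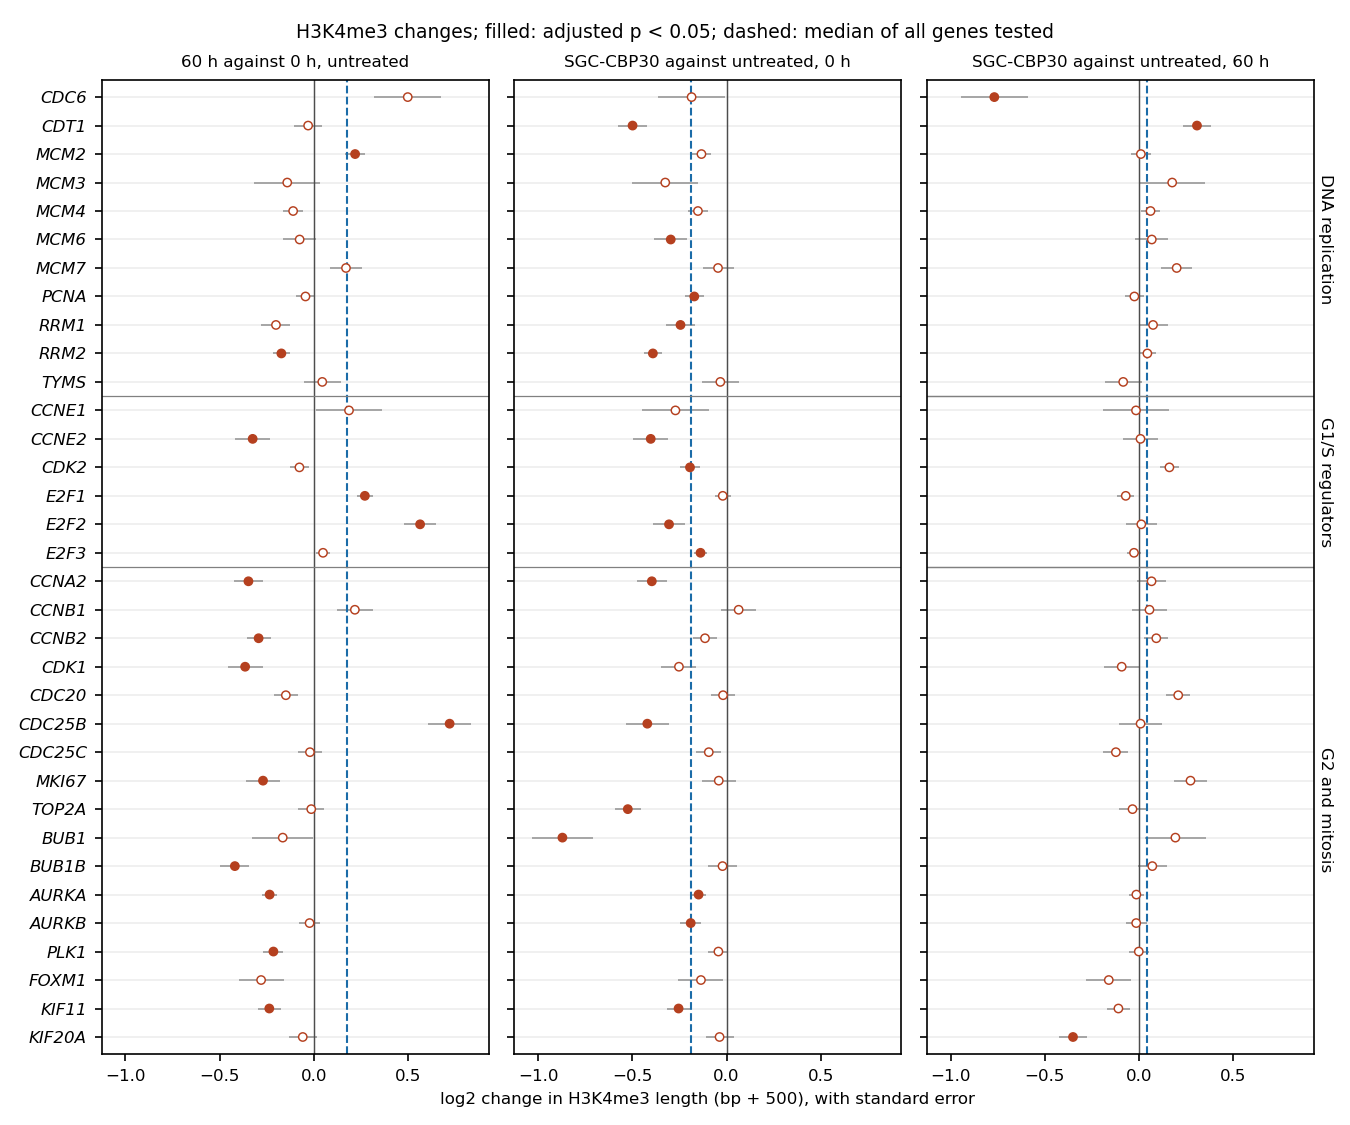
Log2 change of H3K4me3 length (bp plus 500) with its SE for each gene in 3 panels, 60 h against 0 h in WT, CBP against WT at 0 h, and CBP against WT at 60 h; filled points have an adjusted p below 0.05 (limma) and the dashed line is the median of all genes tested. Filled points lie left of 0 for 10 genes in the first panel, 16 in the second and 2 in the third, and the dashed lines stand at 0.18, -0.19 and 0.04.

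The second comparison asked what SGC-CBP30 did in proliferating cells. H3K4me3 fell at 16 members and rose at 0, beside 41.7% of all genes tested that fell and 1.19% that rose (limma, adjusted p below 0.05). At an unadjusted p below 0.05 the counts were 19 and 0. The median change was -0.18 over the members and -0.19 over all genes tested, so the members' share of falls and their median were close to those of the whole set. The 16 were 5 replication genes (CDT1, MCM6, PCNA, RRM1, RRM2), 4 G1/S genes (CCNE2, CDK2, E2F2, E2F3) and 7 mitosis genes (CCNA2, CDC25B, TOP2A, BUB1, AURKA, AURKB, KIF11). Quantile scaling moved the median of all genes to 0.06, with 16% higher and 13.6% lower, and left 2 members higher and 2 lower. Without 1 library the falls numbered 6 (WT 0 h replicate 1), 5 (WT 0 h replicate 2), 9 (CBP 0 h replicate 1) and 8 (CBP 0 h replicate 2). The median of the replication genes minus that of the mitosis genes was -0.05, and -0.18 without CBP 0 h replicate 1.

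BUB1 (chr3:45585188-45623240) had 988 and 1244 bp of H3K4me3 in WT and 539 and 247 bp in CBP cells at 0 h. Its groups were far apart, with a log2 change of -0.87 ± 0.16 (adjusted p = 0.00735, limma). TOP2A (chr12:22001300-22028452) had 2032 and 2167 bp in WT against 1202 and 1419 bp in CBP cells and fell by 0.52 ± 0.07 (adjusted p = 0.00216). Both calls held in every alternative run, quantile scaling included. CDT1 had 5811 and 5264 bp against 4046 and 3508 bp, a log2 change of -0.50 ± 0.08 (adjusted p = 0.00342), and CCNA2 1648 and 1934 bp against 1225 and 1249 bp, a log2 change of -0.40 ± 0.08 (adjusted p = 0.00874). Those last 2 kept their direction and lost the call under quantile scaling (-0.24, adjusted p = 0.0712, and -0.16, adjusted p = 0.156). RRM2 had 4356 and 4126 bp against 3126 and 3103 bp and fell by 0.39 ± 0.05 (adjusted p = 0.00134).

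Smaller falls were common. PCNA had 3761 and 3691 bp in WT and 3263 and 3242 bp in CBP cells at 0 h, a log2 change of -0.17 ± 0.05 (adjusted p = 0.0385, limma) that turned to 0.07 under quantile scaling and was lost when any of the 4 libraries of 0 h was left out. E2F2 had 1259 and 1185 bp against 800 and 993 bp (-0.31, adjusted p = 0.0272), lost without either WT library of 0 h, without CBP 0 h replicate 1, and under quantile scaling (-0.04, adjusted p = 0.681). CDC25B had 3944 and 3779 bp against 2948 and 2579 bp (-0.42 ± 0.11, adjusted p = 0.0275). Its call was lost in 8 alternatives, among them the omission of either WT library of 0 h, of CBP 0 h replicate 2 or of either CBP library of 60 h. CCNB1 (2105 and 1996 against 2409 and 1942 bp), PLK1 (2615 and 2418 against 2466 and 2385 bp), MKI67 (3074 and 2999 against 2892 and 2980 bp) and MCM2 (2543 and 2333 against 2137 and 2217 bp) did not pass. E2F1 did not pass either, with 2491 and 2562 bp against 2420 and 2549 bp.

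At 60 h, treated and untreated cells differed at few of these genes. H3K4me3 was longer in CBP cells at 1 member, CDT1, and shorter at 2, CDC6 and KIF20A, beside 10.3% of all genes tested that were longer and 7.36% shorter. The median change was 0.01 over the members and 0.04 over all genes tested. Quantile scaling left 0 longer and 2 shorter, beside 9.17% of all genes in either direction. CDT1 had 5310 and 5494 bp in WT and 7012 and 6592 bp in CBP cells (0.31 ± 0.08, adjusted p = 0.0394, limma), with the groups apart. CDC6 had 1586 and 1407 bp against 560 and 794 bp, a log2 change of -0.77 ± 0.18 (adjusted p = 0.0322), and KIF20A, a kinesin of cytokinesis, 2598 and 2739 bp against 2163 and 1817 bp, a log2 change of -0.35 ± 0.07 (adjusted p = 0.0238). None of the 3 calls was firm. CDT1 lost its call when any 1 of the 4 libraries of 60 h was left out. CDC6 lost it when any of those 4 or either WT library of 0 h was left out, and with the deposited -log10 q of each peak held to at least 5 (-0.36, adjusted p = 0.254). KIF20A lost it without either WT library of 60 h or CBP 60 h replicate 2, and when bases near other genes were left out (adjusted p = 0.259). Longer members numbered 2 without either WT library of 0 h, and 0 without WT 60 h replicate 2 or either CBP library of 60 h. Shorter members numbered 1 without either WT library of 0 h or CBP 60 h replicate 1, and 0 without either WT library of 60 h or CBP 60 h replicate 2.

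The effect of SGC-CBP30 on H3K4me3 itself differed between 60 h and 0 h at 7 members, all with the more positive change at 60 h: BUB1, RRM2, CCNE2, CDK2, CDT1, CCNA2 and TOP2A (interaction term, limma). At an unadjusted p below 0.05 there were 14 positive and 1 negative. Over all genes tested, 37.9% had a positive and 3.56% a negative interaction, with a median of 0.24. Quantile scaling moved that median to -0.04 and left 2 positive and 3 negative members (11 and 12.2% of all genes), and without WT 60 h replicate 2 the count was 4. For CDT1 the difference of the 2 effects was 0.81 ± 0.11 (adjusted p = 0.00298), and it held in every alternative run. For BUB1, with 962 and 910 bp in WT and 1079 and 1204 bp in CBP cells at 60 h, it was 1.06 ± 0.23 (adjusted p = 0.0139), lost without WT 60 h replicate 2.

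H3K27ac was listed in both libraries at a minority of these genes in every group. In both WT libraries at 0 h, 13 of 34 members (38.2%) had H3K27ac, against 47.6% of the 11745 genes that carried H3K4me3 in all 8 libraries. In both WT libraries at 60 h the mark was at 16 members (47.1%), against 66.7%. In both CBP libraries it was at 4 members (11.8%, against 26.1%) at 0 h and at 5 (14.7%, against 40.3%) at 60 h. None of the 34 had it in all 8 libraries, as 17.2% of those other genes did. When a base in either library was enough, 67.6% of members had the mark in WT at 0 h, above the 58.7% of the other set, and in the remaining groups the share was again the lower one. The replication genes with the mark in both libraries numbered 3 of 11 in WT at 0 h, 1 in CBP at 0 h, 8 in WT at 60 h and 2 in CBP at 60 h. Those of mitosis numbered 8, 2, 5 and 2 of 17, and those of G1/S 2, 1, 3 and 1 of 6.

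**Figure D3:**
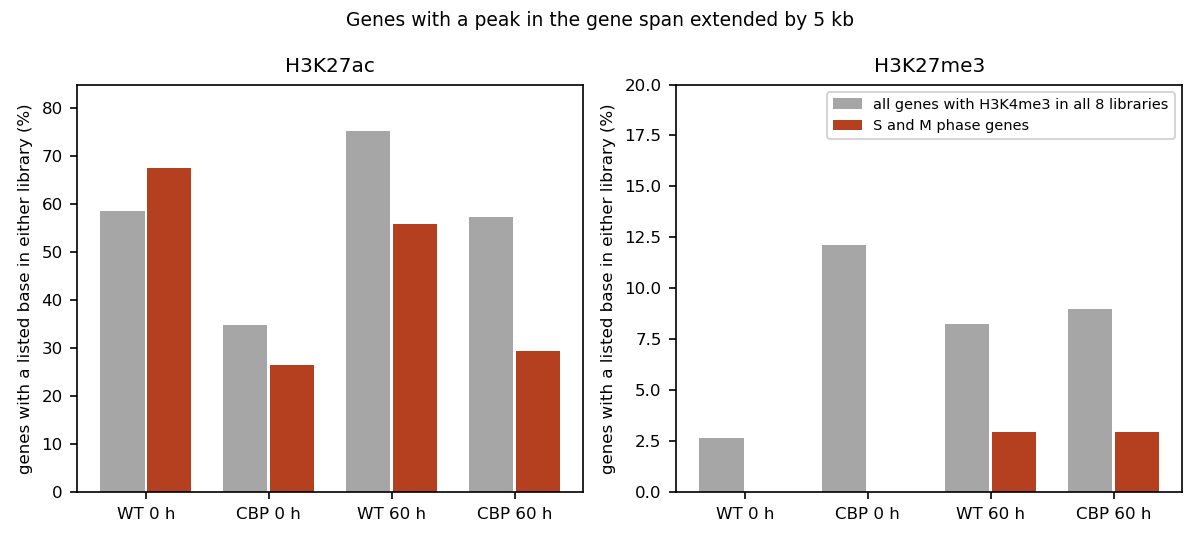
Percent of genes with at least 1 listed base in either library of a group, for the 34 S and M phase genes and for all genes with H3K4me3 in all 8 libraries, by mark and group. For H3K27ac the members stand at 67.6, 26.5, 55.9 and 29.4% in WT 0 h, CBP 0 h, WT 60 h and CBP 60 h, and the other genes at 58.7, 34.9, 75.3 and 57.3%.

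The H3K27ac at these genes was short and mostly overlapped H3K4me3. It consisted of 137 peaks at 28 members with a median length of 496 bp, and 127 of them (92.7%) overlapped an H3K4me3 peak. Of the 137 peaks, 75 lay within 1 kb of an end of the member, 29 inside it and 33 outside it, and 59 lay within 1 kb of another protein-coding gene. The gene table gives no strand, so the end with the promoter was not identified. CDT1, CCNE1, CCNB1, BUB1, BUB1B and PLK1 had no H3K27ac base in any library. MCM7 (309 bp in WT 0 h replicate 1), E2F1 (361 bp in WT 60 h replicate 1) and MKI67 (493 bp in WT 0 h replicate 2) had a peak in 1 library each, so 25 members passed the filter of 200 bp in at least 2 libraries. Summed lengths were 11.4 and 8.83 kb in WT at 0 h, 2.57 and 2.71 kb in CBP at 0 h, 20.8 and 17.6 kb in WT at 60 h, and 9.64 and 5.25 kb in CBP at 60 h. At each time both CBP libraries lay below both WT libraries, as they did in the total length covered by H3K27ac peaks.

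Markers of the cell types moved in H3K27ac beside the members. The summed length at the 10 satellite cell and myoblast markers was 24.2 to 26.0 kb in WT at 0 h, 8.905 to 12.5 kb in CBP at 0 h, 51.1 to 55.4 kb in WT at 60 h and 29.2 to 36.6 kb in CBP at 60 h, with VCAM1 at 0 throughout. In the same order, 6, 5, 8 and 4 of the 10 had the mark in both libraries. MYOD1, CDH15 and DES were at 0 in WT and CBP at 0 h. CDH15 was also at 0 in WT at 60 h, and MYOD1 and CALCR in CBP at 60 h. At the 8 markers of differentiating muscle the summed length was 0.467 to 1.37, 0, 13.4 to 16.7 and 6.86 to 10.7 kb in the same order. TNNT2 and ACTA1 were at 0 throughout. At the 6 fibroblast markers it was 5.10 to 5.21, 0.922 to 1.39, 21.6 to 26.2 and 9.43 to 10.4 kb, with LUM, PDGFRA and THY1 at 0 throughout. Of 4 endothelial markers 2 had H3K27ac in both WT libraries at 0 h, 0 in CBP at 0 h and 1 in each group of 60 h, with KDR at 0 throughout and at most 0.95 kb in sum. Of 4 immune markers 1, 0, 2 and 2 had it, with CD3E and PTPRC at 0 throughout, and of 3 adipocyte markers 0 in both libraries of any group. Their part in the changes of the members was not tested.

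**Figure D4:**
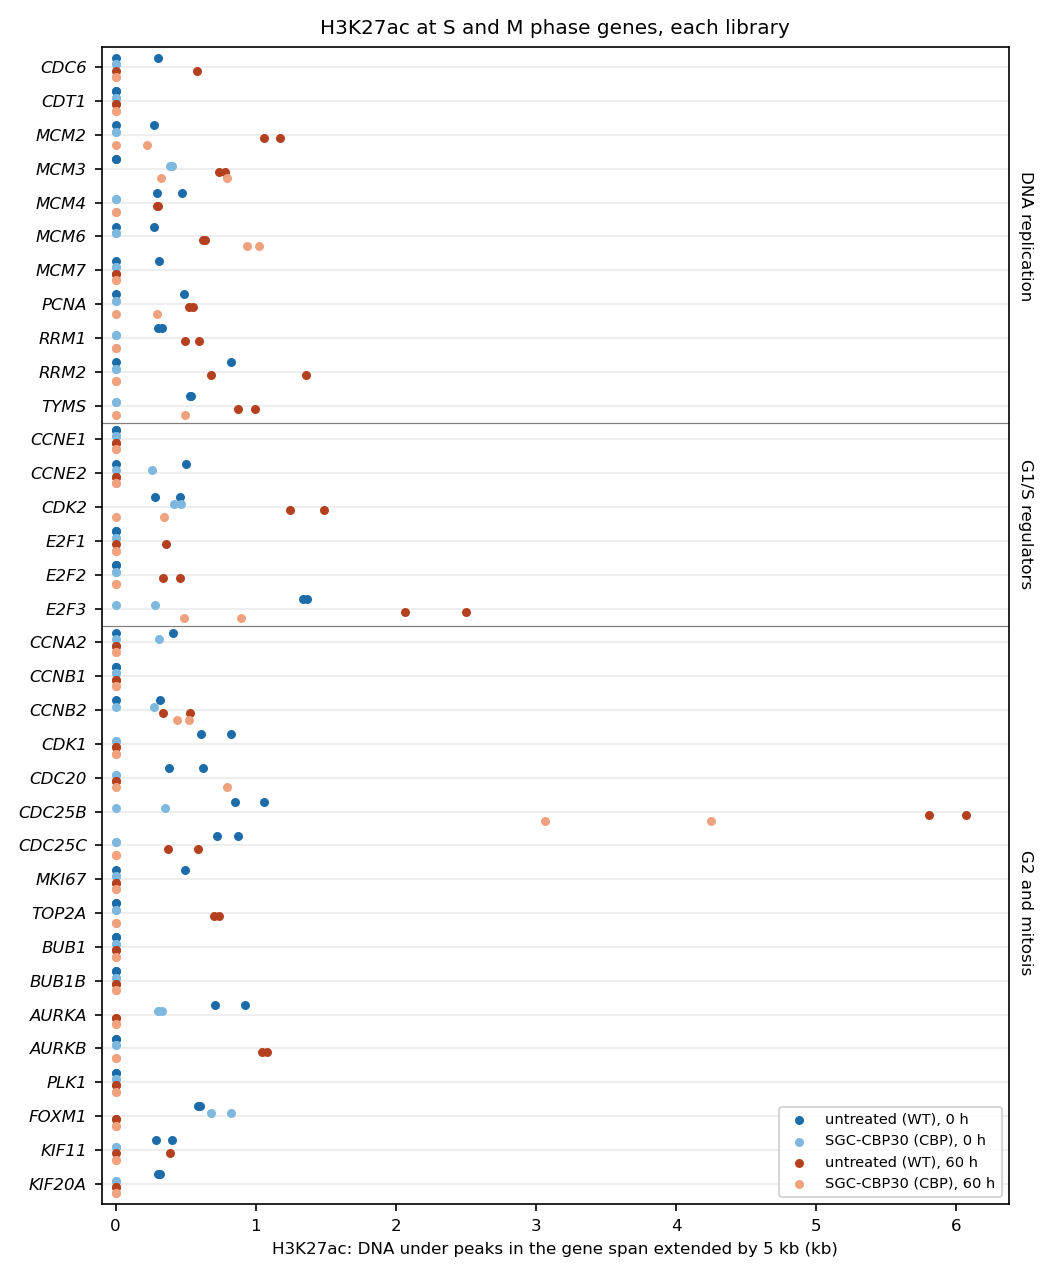
H3K27ac length under peaks (kb) at each of the 34 genes, in 3 blocks by role, with 1 point for each of the 8 libraries coloured by group. Most genes have libraries at 0, and the longest value is 6071 bp at CDC25B in a WT library at 60 h.

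In untreated cells, 9 members gained H3K27ac length from 0 h to 60 h and 5 lost it, beside 46.8% of the 10294 genes tested that gained and 10.6% that lost (limma, adjusted p below 0.05). The 9 were the helicase subunits MCM2, MCM3 and MCM6, the reductase subunit RRM1, CDK2, E2F2, CDC25B, TOP2A and AURKB. The 5 were CDK1, AURKA, FOXM1, KIF20A and CDC25C, all of the mitosis list. By role, 4 of the 9 replication genes tested rose and 0 fell (0 also at an unadjusted p below 0.05), 2 of 4 G1/S genes rose and 0 fell, and 3 of 12 mitosis genes rose and 5 fell. With quantile scaling the median of all genes was 0.01 in place of 0.69, 20.7% were called higher and 20.9% lower, and the members split into 4 higher and 8 lower. The rises numbered 3 without either WT library of 60 h, and the falls 2 without WT 0 h replicate 1. The mitosis falls numbered 2 without either WT library of 0 h, and 1 replication gene fell without WT 0 h replicate 2. Where a group is listed at 0 in both libraries, the lengths are given with no fold, and the spread estimated by limma then rests largely on those zeros, so its p-values are the less certain ones. CDK1, TOP2A, KIF20A, AURKB and E2F2 passed the filter of 200 bp through the WT libraries of 1 time alone. The same values then made them eligible and gave the call, so their p-values are not independent support. AURKA and FOXM1 passed through WT and CBP libraries of 0 h alone, so this limit holds in part for them.

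Among the mitosis genes, the mark was gained at some genes and lost at others. CDK1 had 824 and 611 bp of H3K27ac at its own gene end in WT at 0 h and was listed at 0 in the other 6 libraries (60 h against 0 h in WT, adjusted p = 0.000274, limma). TOP2A was the opposite, with 701 and 735 bp at its gene end in WT at 60 h and 0 in the other 6 (adjusted p = 8.87e-05). The deposited -log10 q was 3.48 and 2.49 for these TOP2A peaks and 9.67 and 9.47 for those of CDK1. CDC25B had 850 and 1056 bp in WT at 0 h and 6071 and 5808 bp at 60 h. The length at 0 h lay wholly outside the gene, within 1 kb of its neighbour AP5S1. At 60 h the longest stretch within the window, of 2457 and 2471 bp, lay inside the gene. Both libraries at 60 h lay far above those at 0 h, with a log2 change of 2.15 ± 0.29 (adjusted p = 0.00235).

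At AURKA, FOXM1, KIF20A and AURKB, peaks lay within 1 kb of a neighbour. Which gene of the pair they belong to cannot be told apart. The same holds for every H3K27ac peak of CDC25C (beside LOC100515533), RRM1 (STIM1), MCM4 (PRKDC), CDK2 (RAB5B) and PCNA (TMEM230). AURKA (chr17:56954838-56972435), whose peak lay at its own end and beside CSTF1, had 925 and 710 bp in WT at 0 h, 330 and 300 bp in CBP at 0 h and 0 in the 4 libraries of 60 h (60 h against 0 h in WT, adjusted p = 0.000295, limma). FOXM1 had 605 and 588 bp in WT at 0 h, on the side of RHNO1 and outside FOXM1 itself, 824 and 680 bp in CBP at 0 h and 0 at 60 h (adjusted p = 0.000421). KIF20A, with a peak at its own end and beside BRD8, had 301 and 317 bp in WT at 0 h alone (adjusted p = 0.00012). AURKB had 1048 and 1084 bp in WT at 60 h alone (adjusted p = 8.87e-05), most of it outside the gene beside BORCS6, with a peak of 351 and 330 bp inside AURKB and near no other gene. The call at CDC25B held in all 16 alternatives. Those at AURKA, FOXM1, KIF20A, AURKB, CDK1 and TOP2A held wherever the gene could be tested, in 15, 15, 11, 14, 14 and 12 of the 16. With bases near other genes left out, AURKA, FOXM1 and KIF20A no longer passed the filter and had no call. CDK1 and KIF20A had no value without either WT library of 0 h, and AURKB and TOP2A none without either WT library of 60 h. KIF20A and TOP2A also had none with a -log10 q of at least 5 or with lists of equal length. CDC25C, a phosphatase of CDK1, had 723 and 872 bp in WT at 0 h and 589 and 376 bp at 60 h, a log2 change of -0.41 ± 0.14 (adjusted p = 0.0497). Its deposited -log10 q, computed within each library, went the other way, with 1.77 and 1.33 at 0 h and 4.20 and 4.72 at 60 h. The peaks of the 2 times also lay at different places. In WT replicate 1 the peak ran from 140323400 to 140324122 at 0 h and from 140324152 to 140324740 at 60 h, without overlap. In WT replicate 2 it ran from 140323400 to 140324271 at 0 h and from 140323995 to 140324370 at 60 h. The fall in length is thus not that of 1 peak becoming shorter in place.

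At the replication genes the mark was short and appeared in more libraries at 60 h. MCM2 had 272 and 0 bp in WT at 0 h and 1174 and 1057 bp at 60 h (1.38 ± 0.27, adjusted p = 0.00889, limma), lost without WT 60 h replicate 1. MCM6 had 276 and 0 bp against 635 and 622 bp (0.86 ± 0.22, adjusted p = 0.0206), and MCM3 0 in both libraries against 781 and 738 bp (adjusted p = 0.005, or 0.170 under quantile scaling). RRM1, the large subunit of ribonucleotide reductase, had 329 and 300 bp against 496 and 595 bp, beside its neighbour STIM1 (0.36 ± 0.09, adjusted p = 0.0187). PCNA had 490 and 0 bp against 550 and 525 bp, with no call, and CDC6 had 304 bp in 1 library at 0 h and 580 bp in 1 at 60 h. Of the G1/S genes, E2F2 was listed at 0 in WT at 0 h and had 457 and 341 bp, inside the gene, at 60 h (adjusted p = 0.000424), lost under quantile scaling (adjusted p = 0.721). CDK2, the kinase of cyclins E and A, had 458 and 282 bp against 1489 and 1248 bp on the side of its neighbour RAB5B (1.11 ± 0.27, adjusted p = 0.0193). CCNA2 had 411 and 0 bp in WT at 0 h and 0 at 60 h, with no call.

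SGC-CBP30 in proliferating cells went with shorter H3K27ac at 8 members and longer H3K27ac at 1, beside 32.6% of all genes tested that fell and 1.4% that rose (limma, adjusted p below 0.05). The 8 were MCM4, RRM1, E2F3, CDK1, CDC25B, CDC25C, AURKA and KIF20A, 5 of them mitosis genes. The 1 was MCM3, listed at 0 in both WT libraries and with 386 and 406 bp in CBP cells (adjusted p = 0.0365), a call lost when any 1 of the 4 libraries of 0 h or either WT library of 60 h was left out. CDK1 (824 and 611 bp in WT), CDC25C (723 and 872 bp), KIF20A (301 and 317 bp), MCM4 (472 and 297 bp) and RRM1 (329 and 300 bp) were all listed at 0 in both CBP libraries of 0 h. Their adjusted p-values ran from 0.000504 at KIF20A to 0.00439 at MCM4. CDK1 and KIF20A passed the filter through these WT libraries alone. MCM4, RRM1 and CDC25C passed it through WT libraries of both times, with every CBP library at 0. The p-values of all these genes are therefore not independent support. The peaks of CDC25C, KIF20A, MCM4 and RRM1 lay within 1 kb of a neighbour. Those of CDC25C in WT at 0 h ranked at percentiles 2.37 and 0.314 of their lists. E2F3, an activating E2F factor, had 1336 and 1366 bp in WT against 0 and 281 bp in CBP cells, a log2 change of -1.57 ± 0.27 (adjusted p = 0.0105), lost without either WT library of 0 h and under quantile scaling (-0.96, adjusted p = 0.101). AURKA fell by 0.69 ± 0.11 (adjusted p = 0.00725) and FOXM1, with its 605 and 588 against 824 and 680 bp, did not pass (0.19 ± 0.10, adjusted p = 0.229). The fall at CDC25B, from 850 and 1056 bp to 0 and 351 bp (-1.15 ± 0.29, adjusted p = 0.0318), turned to 0.38 (adjusted p = 0.498) when bases near other genes were left out. It was also lost when any 1 of the 4 WT libraries or CBP 0 h replicate 1 was left out. Under quantile scaling, which moved the median of all genes from -0.46 to 0.08 and called 8.91% higher and 15.5% lower, 3 members rose and 3 fell. Without WT 0 h replicate 1 there were 4 falls.

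At 60 h, H3K27ac was shorter in CBP cells at 11 members and longer at 0, beside 45.8% of all genes tested that were shorter and 3.03% longer (limma; 0 longer also at an unadjusted p below 0.05). The 11 were MCM2, MCM4, RRM1, RRM2 and TYMS of replication, CDK2, E2F2 and E2F3 of G1/S, and CDC25C, TOP2A and AURKB of mitosis. RRM1 (496 and 595 bp in WT), E2F2 (457 and 341 bp), TOP2A (701 and 735 bp), AURKB (1048 and 1084 bp), CDC25C (589 and 376 bp), MCM4 (299 and 302 bp) and RRM2 (1362 and 680 bp) were listed at 0 in both CBP libraries. E2F2, TOP2A and AURKB passed the filter through these WT libraries alone. MCM4, RRM1, CDC25C and RRM2 passed it through WT libraries of both times, with every CBP library at 0. The p-values of all these genes are therefore not independent support. The peaks of RRM1, CDC25C and MCM4, and most of the length at AURKB, lay within 1 kb of a neighbour. For RRM2 the adjusted p was 0.0459 and the call was lost when any library of 60 h or any CBP library of 0 h was left out. TYMS, the thymidylate synthase, had 993 and 874 bp in WT against 494 and 0 bp (-1.02 ± 0.32, adjusted p = 0.0474). MCM2 had 1174 and 1057 bp against 225 and 0 bp, a log2 change of -1.42 ± 0.27 (adjusted p = 0.00955), and CDK2 1489 and 1248 bp against 345 and 0 bp, a log2 change of -1.52 ± 0.27 (adjusted p = 0.00799). Both of those were lost without WT 60 h replicate 1. E2F3 had 2500 and 2066 bp against 897 and 487 bp and fell by 1.24 ± 0.27 (adjusted p = 0.0161). MCM6 (635 and 622 against 1025 and 938 bp), CCNB2 (340 and 531 against 521 and 439 bp) and CDC25B (6071 and 5808 against 4248 and 3063 bp) did not pass, and CDC25B kept several kb of the mark in treated cells. Under quantile scaling (all-gene median 0.03 in place of -0.72, 11.6% higher and 13.4% lower) 1 member rose and 3 fell, and the calls at E2F2 (adjusted p = 0.980) and TOP2A (adjusted p = 0.0689) were lost. Falls numbered 3 with WT 60 h replicate 1 omitted and 6 with WT 60 h replicate 2 omitted, and 1 member rose without either WT library of 0 h or CBP 60 h replicate 2.

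For H3K27ac the interaction was called at 8 members, beside 11.5% of all genes tested with a positive and 18.9% with a negative interaction (limma). The effect of SGC-CBP30 was the more negative at 60 h at CDK2, E2F2, MCM3, TOP2A and AURKB, and the more positive at 60 h at KIF20A, CDK1 and AURKA. At E2F2, TOP2A, AURKB, KIF20A and CDK1 the WT cells had the mark at 1 time only, and at AURKA the 60 h libraries were all at 0. With every library of the other time at 0, no loss under SGC-CBP30 could show there. The interaction at these genes thus restates the effect at the time with the mark. With quantile scaling 4 were positive and 3 negative, beside 16.1 and 11.9% of all genes. The count was 5 without either WT or either CBP library of 0 h, 2 with WT 60 h replicate 1 omitted and 1 with WT 60 h replicate 2 omitted.

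H3K27me3 was nearly absent from these genes. The only peaks in a window lay at MKI67 (chr14:137266622-137296312), 582 bp in WT 60 h replicate 1 and 495 bp in CBP 60 h replicate 1, outside the gene at 2940 and 2992 bp from its end. Their deposited -log10 q values, which are the authors', were 1.84 and 2.12. The replicate library had none in either group, and no member had the mark in any library of 0 h. Of the genes with H3K4me3 in all 8 libraries, 1.29% had H3K27me3 in both libraries of WT at 0 h, 8.82% in CBP at 0 h, 5.22% in WT at 60 h and 6.21% in CBP at 60 h. Among all genes, these shares were 3.53, 17.5, 11.6 and 14.8%. MKI67 was the only member tested among 4203 genes and was called in 0 of the 4 comparisons (limma, and 0 at an unadjusted p below 0.05). In the comparison of CBP with WT at 0 h, 77.2% of the genes tested were higher and 0% lower, and from 0 h to 60 h in WT 20.9% were higher and 0.619% lower. With CBP at 60 h 12.1% were higher and 2.62% lower, and the interaction was positive at 3.95% and negative at 53%. The nearest H3K27me3 peak stood at a median distance of 931 and 415 kb from the members in the WT libraries of 0 h, and of 89.2 and 98.9 kb in the CBP libraries of 0 h. At 60 h the medians were 106 and 198 kb in WT and 73.8 and 145 kb in CBP cells.

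Further genes of the same pathways were counted from lists of 40 replication genes, 40 mitosis genes and 19 regulators that bind such genes. From 0 h to 60 h in WT, H3K4me3 rose at 5 and fell at 4 of the replication genes (median -0.01), rose at 3 and fell at 9 of the mitosis genes (median -0.04), and rose at 7 and fell at 2 of the regulators (median 0.14). Over all genes tested 42.2% rose and 5.85% fell. Quantile scaling gave 0 and 23, 0 and 25, and 2 and 8, beside 18.1% and 27% of all genes. The genes named here from these lists were chosen after their values were seen. The kinetochore gene SPC25 had 1161 and 1610 bp at 0 h and 465 and 566 bp at 60 h (-0.88, adjusted p = 0.00186, limma), and UBE2C, the ubiquitin-conjugating enzyme of mitotic exit, 1770 and 1757 bp against 1167 and 1179 bp (-0.44, adjusted p = 0.0037). E2F6, a repressor of the E2F family, had 541 and 575 bp against 1410 and 1522 bp (0.89, adjusted p = 0.000233). RB1, the retinoblastoma protein that restrains E2F, had 4306 and 4345 bp against 5641 and 5539 bp (0.34, adjusted p = 0.00134).

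With SGC-CBP30 at 0 h, H3K4me3 fell at 11 of the further replication genes, 21 of the mitosis genes and 8 of the regulators, and rose at 0 of each (limma; 0 of each also at an unadjusted p below 0.05). These shares lay around the 41.7% of all genes that fell. Under quantile scaling 4 rose and 0 fell, 7 rose and 5 fell, and 4 rose and 0 fell, beside 16% and 13.6% of all genes. CCNF, cyclin F, had 4831 and 4231 bp in WT and 1738 and 1780 bp in CBP cells at 0 h, and 2968 and 2708 bp against 4283 and 4138 bp at 60 h. The log2 change was -1.15 at 0 h (adjusted p = 0.000196, limma) and 0.50 at 60 h (adjusted p = 0.00571). Calls at 60 h were few, with 1 higher and 1 lower of the replication genes (POLA2 and DUT), 2 higher and 3 lower of the mitosis genes (SPC24 and CCNF; NEK2, KIF14 and ANLN) and 1 higher of the regulators (E2F4), beside 10.3% of all genes higher and 7.36% lower. For H3K27ac from 0 h to 60 h in WT, 8 of the 26 replication genes tested rose and 4 fell, 11 of 27 mitosis genes rose and 2 fell (PTTG1 and UBE2C), and 5 of 14 regulators rose and 2 fell (E2F8 and MYBL2). Over all genes tested 46.8% rose and 10.6% fell. Quantile scaling gave 3 and 8, 4 and 5, and 1 and 2, beside 20.7% and 20.9% of all genes. MYBL2, which activates mitosis genes, had 889 and 1160 bp of H3K27ac in WT at 0 h and 0 in the other 6 libraries. SMC4, a condensin subunit, had 1805 and 1867 bp in WT at 0 h and 10009 and 10195 bp at 60 h (2.18, adjusted p = 8.87e-05). SGC-CBP30 went with shorter H3K27ac at 11, 8 and 5 of the 3 lists at 0 h, beside 32.6% of all genes, and at 15, 17 and 5 at 60 h, beside 45.8%. In limma 0 were longer at either time, and at an unadjusted p below 0.05 it was 1 mitosis gene at 60 h. Under quantile scaling 6, 4 and 3 were shorter and 3, 0 and 1 longer at 0 h, and 1, 4 and 3 shorter and 3, 3 and 0 longer at 60 h. All genes then stood at 15.5% shorter and 8.91% longer at 0 h, and 13.4% and 11.6% at 60 h.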

How the data were processed

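CUT&Tag peaks of H3K4me3, H3K27ac and H3K27me3 came from 24 lists that the authors deposited, 1 per library. Per the submitters' processing notes, Trimmomatic, MACS2 2.1.0 and Sscrofa11.1 were used. The aligner and the control library are not given in these sources, and the depth per library and its precision are unknown. As deposited, the files hold for each peak a fold (a ratio over local background), a -log10 p, a -log10 q and a display score. Since these are computed within each library, the comparisons rest on peak positions, with the -log10 q in a stricter alternative and the -log10 p to rank peaks within a list. The 8 IgG samples were not analysed here.

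Merged peaks were counted in bp within each gene ± 5 kb (gene table without strand) in Python 3.11.15 (pandas 2.3.3, numpy 2.4.6) and drawn with matplotlib 3.10.9. Overlapping windows share peaks. The log2 of bp plus 500 was compared with limma 3.58.1 in R 4.3.3 (1 fit per mark over its 4 groups, 2 libraries each), for genes that reached 200 bp in 2 or more libraries. P-values were Benjamini-Hochberg adjusted over all genes tested, with a threshold of 0.05. The fit was tested on simulated data, with changes placed only at genes with long values. That test therefore does not cover values near 0. Genes were named by rule: the 4 largest called changes per mark, comparison and direction, and PCNA, MCM2, CDC6, CCNE1, E2F1, E2F2, CCNA2, CCNB1, CDK1, PLK1, MKI67, TOP2A and FOXM1. Other members were named to complete a count or a role, with their values known. The members and lists were chosen with earlier results of these data known, and the alternative without bases near other genes was chosen after seeing the data. Other alternatives were quantile scaling, 100 bp added, no filter, a -log10 q of at least 5, lists of equal length, windows at gene ends, a replicate block, CCNA2 counted with replication, and leaving out each library. Promoter and protein sequences were not used here.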

Additional observations from a re-analysis of the deposited data

Results flagged for a closer look

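The interaction test (limma, adjusted over all genes tested) called a difference between the effects of SGC-CBP30 at 60 h and at 0 h at 7 members for H3K4me3. The adjusted p-values were 0.00298 at CDT1, 0.00416 at RRM2, 0.0111 at TOP2A, 0.0118 at CDK2, 0.0139 at BUB1, 0.0189 at CCNA2 and 0.0464 at CCNE2. All 7 had the shorter peaks under SGC-CBP30 at 0 h and a higher change at 60 h, in a fit where 37.9% of all genes had a positive interaction.

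For H3K27ac the same test called 8 members. The adjusted p-values were 0.000609 at TOP2A, 0.000609 at AURKB, 0.000808 at KIF20A, 0.00182 at CDK1, 0.00285 at E2F2, 0.0248 at AURKA, 0.0295 at CDK2 and 0.0469 at MCM3. At TOP2A, AURKB and E2F2 the untreated cells had the mark at 60 h only, and at KIF20A and CDK1 at 0 h only. The calls at AURKA, CDK2 and MCM3 were each lost in at least 7 alternatives.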

How the results depend on the processing

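With quantile scaling, H3K4me3 from 0 h to 60 h in WT gave 2 members higher and 24 lower (replication genes 6 lower, mitosis genes 15 lower), CBP against WT at 0 h 2 higher and 2 lower, and at 60 h 0 higher, and PCNA at 0 h reversed to 0.073. H3K27ac gave 4 higher and 8 lower from 0 h to 60 h (replication genes 2 lower), 3 and 3 for CBP at 0 h, and 1 and 3 at 60 h. Leaving out bases near other genes reversed E2F1 (H3K4me3 from 0 h to 60 h, -0.11) and CDC25B (H3K27ac with CBP at 0 h, 0.38). It gave 4 replication genes lower from 0 h to 60 h and 1 member lower with CBP at 60 h for H3K4me3, and for H3K27ac 1 lower from 0 h to 60 h (1 mitosis gene), 3 lower with CBP at 0 h, 7 at 60 h and 5 members with an interaction. A -log10 q of at least 5 left H3K4me3 1 lower with CBP at 60 h, and H3K27ac 3 lower from 0 h to 60 h (3 mitosis genes), 0 higher and 4 lower with CBP at 0 h. Lists of equal length left H3K4me3 0 replication genes lower, 0 higher and 1 lower with CBP at 60 h, and H3K27ac 3 lower (3 mitosis genes), 4 lower with CBP at 0 h and 7 at 60 h. Adding 100 bp left H3K4me3 0 higher and H3K27ac 7 lower with CBP at 60 h. With the higher -log10 q or the equal lists, no member could be tested for H3K27me3. Windows at gene ends, no filter and CCNA2 counted with replication left each count or median they could give within 1.5 times or the spread. The cause of these differences was not tested.

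When 1 library was left out, H3K4me3 from 0 h to 60 h gave 3 to 6 higher and 5 to 10 lower (replication 0 to 2, mitosis 4 to 7, difference of medians 0.09 to 0.17). With CBP it gave 0 to 0 higher and 5 to 15 lower at 0 h (difference -0.18 to -0.015), 0 to 2 higher and 0 to 2 lower at 60 h (0.01 to 0.06), and 4 to 9 interactions. H3K27ac gave 3 to 10 higher and 2 to 6 lower (replication 0 to 1, mitosis 2 to 6), 0 to 1 and 4 to 10 with CBP at 0 h, 0 to 1 and 3 to 11 at 60 h, and 1 to 10 interactions. The deviations of same-numbered libraries had correlations of -0.0887 to 0.183 over 18 pairs. These do not settle whether such libraries shared a culture or batch, which the labels do not give. With the replicate block, H3K4me3 at 0 h fell at 14 members in place of 16, the other counts kept within 1.5 times, and 1 gene call of 53 was lost (MCM3, H3K27ac interaction). Unknown read depth limits every length near 0.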
